A study of Mus musculus with 12 samples.

Results

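The 10 genes described here are Jun, Atf3, Sox11, Gap43, Tubb6, Sprr1a, Gal, Lcn2, Ecel1 and Clic1, known for their induction after nerve injury or during axon regeneration, and they are 10 of 25965 entries in a table of RNA counts from mouse lower motor neurons. Lumbar motor neurons were taken by laser capture at 5 months of age from mice on a C57BL/6 background that were wild type (+/+), heterozygous (Q331K/+) or homozygous (Q331K/Q331K) for a knock-in of the Q331K amino acid change in TDP-43, an RNA-binding protein linked to amyotrophic lateral sclerosis. Each genotype had 4 libraries, 12 in all, and the labels name no nerve injury or drug. Nothing in the labels ties a library to a single animal, and the spread among replicates may therefore be partly technical. The genes were chosen by symbol, and they were chosen from earlier results of these same counts; which values weighed in the choice is not recorded. Their values are therefore given as a description, and no test of them is used as support.

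When the axon of a motor neuron is cut, the cell body switches from transmission to regrowth. The transcription factors Jun, Atf3 and Sox11 are induced early and drive genes of the growth cone, such as Gap43 and Sprr1a, together with secreted peptides such as galanin, encoded by Gal. Ecel1, also called damage-induced neuronal endopeptidase, is a membrane protease induced by axotomy, and Tubb6 is a beta tubulin raised in regenerating neurons. Lcn2, a secreted carrier of iron-binding siderophores, is better known from neutrophils and reactive astrocytes, and Clic1 is a chloride intracellular channel protein found in many cell types.

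Jun and Atf3 are partners in AP-1, a dimer that binds the letters TGANTCA, and Atf3 also binds the cyclic AMP response element TGACGTCA. Promoter windows of 300 bases, from 250 before to 50 after the start of the gene, were taken from RefSeq (GRCm38.p6) for 8 of the 10 genes, Gap43 and Tubb6 being not analysed here, and were searched on both strands. The AP-1 letters were present in 2 of the 8 windows and the cyclic AMP response element in 0, against 7.81% and 1.79% of all 32841 promoter windows. These motifs do not overlap each other. Clic1 held TGAGTCA 38 bases before the start, and Sprr1a held it at 146 and 116 bases before. Both windows are shown with the motif in capitals (Clic1, chr17:35049993-35050292, plus strand; Sprr1a, chr3:92485832-92486131, minus strand). The window of Ecel1, which among these genes had the highest correlation with Tubb6 and with Jun, is shown for comparison and holds neither motif (chr1:87156307-87156606, minus strand). A match of letters is a description and not evidence of binding.
Clic1: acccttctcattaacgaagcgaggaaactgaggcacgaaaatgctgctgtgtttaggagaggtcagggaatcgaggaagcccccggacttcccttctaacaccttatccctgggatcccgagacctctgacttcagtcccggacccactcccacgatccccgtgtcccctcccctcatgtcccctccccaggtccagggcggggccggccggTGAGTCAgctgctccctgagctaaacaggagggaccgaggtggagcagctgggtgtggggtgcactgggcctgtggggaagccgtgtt
Sprr1a: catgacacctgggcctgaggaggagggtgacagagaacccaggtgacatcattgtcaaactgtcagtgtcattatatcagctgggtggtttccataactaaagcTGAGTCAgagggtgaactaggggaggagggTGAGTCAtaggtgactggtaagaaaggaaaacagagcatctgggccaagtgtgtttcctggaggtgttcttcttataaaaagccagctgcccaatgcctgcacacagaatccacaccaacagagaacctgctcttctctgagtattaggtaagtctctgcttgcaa
Ecel1: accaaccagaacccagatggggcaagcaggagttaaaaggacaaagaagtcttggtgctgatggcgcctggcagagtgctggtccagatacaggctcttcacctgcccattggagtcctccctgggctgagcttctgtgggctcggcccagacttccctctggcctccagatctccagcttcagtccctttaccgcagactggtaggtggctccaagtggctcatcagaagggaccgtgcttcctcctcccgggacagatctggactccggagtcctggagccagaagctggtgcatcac

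Depth was similar in all groups, with 60886825 to 83504446 counts per library. Counts were scaled by edgeR's TMM method and are given as CPM, the count relative to the scaled library size. Levels are compared between libraries of a gene and not between genes, since CPM is not divided by gene length. All 66 pairs of libraries differed by more than counting error (smallest chi-square per degree of freedom 61). Heterozygote replicate 1 and homozygote replicate 1 stood apart, at 210 to 442 against the other 10 on the same measure, and almost lacked interneuron RNA, with a summed level of 10 inhibitory interneuron markers of 31.6 and 23.4 CPM against 433 to 908 CPM in the other 10 libraries. Wild type replicate 1 also stood apart over all genes, with a chi-square per degree of freedom of 105 to 215 against the remaining 9, which differed among themselves by 61 to 113. The 10 injury response genes held 0.117% of its counts against 0.0155% to 0.0726% in the other 11. Of the 10 genes, 9 passed the filter on low counts and Sprr1a did not.

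In 6 of the 10 genes, the highest of the 12 libraries was wild type replicate 1. These were Ecel1, Tubb6, Jun, Lcn2, Gal and Clic1. Homozygote replicate 4 was second in Ecel1, Tubb6, Lcn2 and Clic1. Wild type replicate 2 was the lowest of all 12 in Ecel1, Jun, Lcn2 and Clic1, so that wild type held both ends of the range of these 4 genes. No tested gene had wild type libraries that lay wholly to one side of either mutant genotype. Over all genes, 3.41% were separated in this way from homozygotes and 3.24% from heterozygotes. With so few genes tested here, the lack of such a separation does not set them apart.

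**Figure D1:**
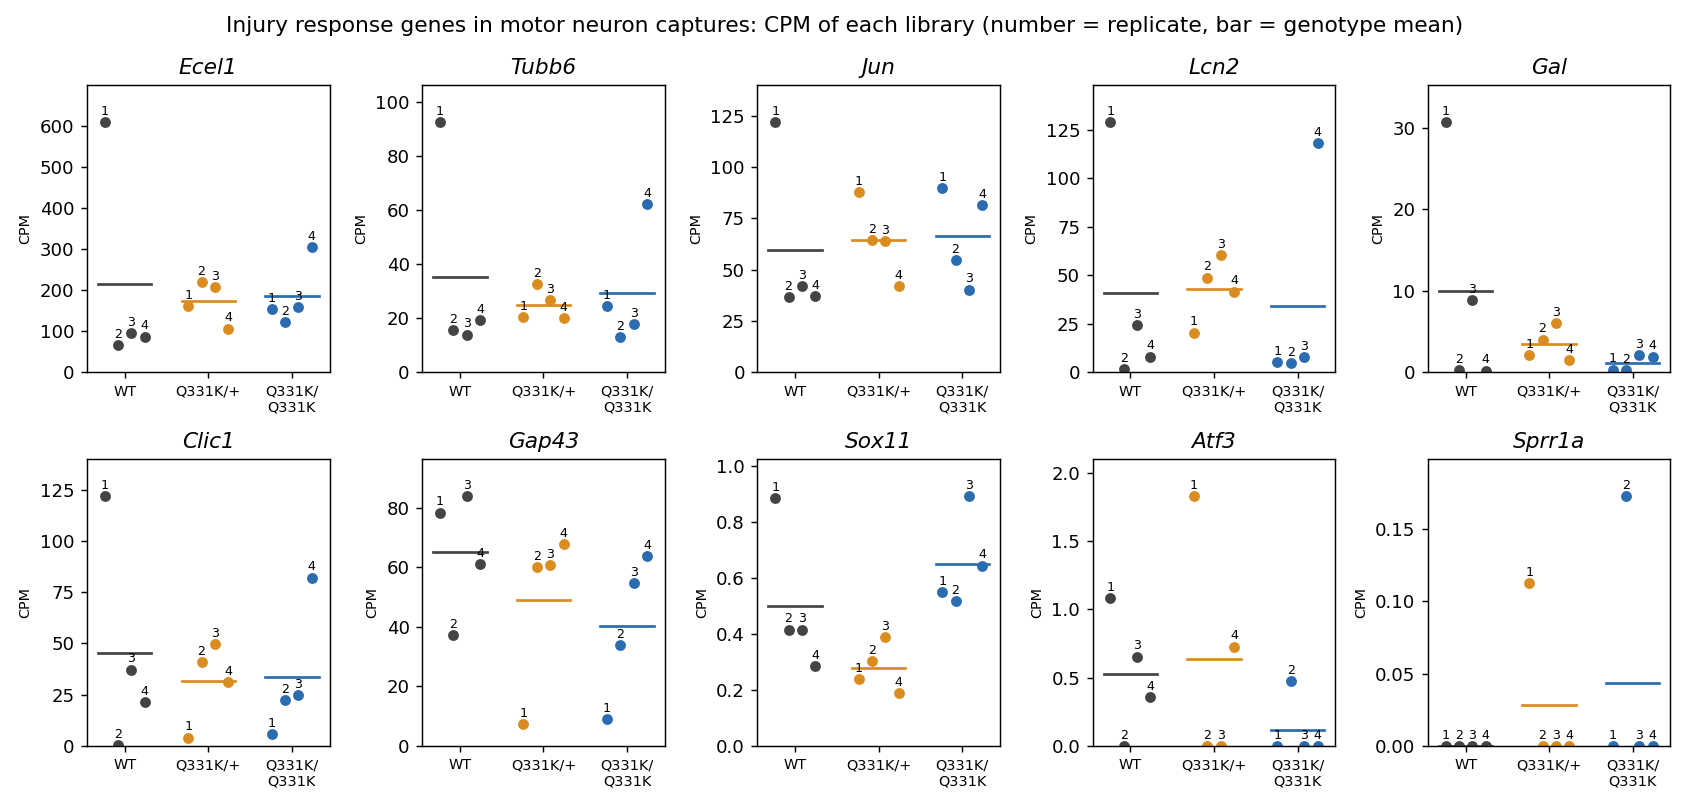
Level in CPM (y axis, linear, from 0) of the 10 injury response genes in each of the 12 libraries, by genotype (x axis); the number beside a point is the replicate and the bar is the genotype mean of 4 libraries. Wild type replicate 1 is the highest point in Ecel1, Tubb6, Jun, Lcn2, Gal and Clic1, and Gap43 is lowest in heterozygote replicate 1 (7.24 CPM) and homozygote replicate 1 (8.88 CPM).

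Jun, the transcription factor that is central to the injury programme, was abundant in every library. Its wild type levels were 122, 36.7, 42.1 and 37.1 CPM in replicates 1 to 4. The heterozygote levels were 88.0, 64.4, 64.1 and 42.0 CPM, and the homozygote levels were 89.9, 54.5, 40.2 and 81.5 CPM. The first wild type library was therefore 1.36-fold above the highest of the other 11 libraries, while the other wild type libraries lay among the lowest. Genotype means were close, with wild type at 59.4 ± 41.7 CPM, heterozygotes at 64.6 ± 18.7 CPM and homozygotes at 66.6 ± 23.1 CPM (SD, n = 4 each). GRCm38 places Jun (ENSMUSG00000052684) at chr4:95049034-95052222, minus strand, and the spans of the other genes are given in the same build. The entry BC042782 overlaps it on the other strand and had counts equal to 11.8% of those of Jun, and without strand information reads of this pair cannot be told apart.

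Atf3, the factor most often used to mark an injured neuron, was near the limit of detection. It had 82, 0, 44 and 30 counts in wild type, 130, 0, 0 and 54 in heterozygotes, and 0, 33, 0 and 0 in homozygotes. A count of 0 allows up to 3 counts, which is 0.0357 to 0.0480 CPM in these libraries and covers counting error only. The highest level was 1.83 CPM, in heterozygote replicate 1, and wild type replicate 1 came next with 1.08 CPM. Of the 12 libraries 6 had no count, spread over all 3 genotypes. Atf3 was counted over chr1:191170296-191183340, minus strand.

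Sox11, a factor of developing neurons that is induced again on injury, was also low, with 14 to 67 counts per library. Its wild type levels were 0.886, 0.416, 0.416 and 0.285 CPM. Heterozygotes had 0.239, 0.303, 0.390 and 0.189 CPM, and homozygotes 0.551, 0.518, 0.894 and 0.645 CPM. Each homozygote library lay above each heterozygote library, and the wild type libraries overlapped both. The counted span of Sox11, chr12:27340697-27342709, is shorter than the gene in the GENCODE annotation, which begins at 27334264.

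Gap43, the growth cone phosphoprotein, followed a pattern of its own. Its wild type levels were 78.4, 37.1, 83.9 and 61.0 CPM. Heterozygotes were at 7.24, 60.0, 60.8 and 67.8 CPM, and homozygotes at 8.88, 33.8, 54.7 and 63.7 CPM. The 2 lowest libraries were those that almost lacked interneuron RNA, and the other 10 ran from 33.8 to 83.9 CPM in all genotypes. Over those 10 libraries the correlation of Gap43 with the inhibitory interneuron score was 0.29, so the relation over all 12 rests on the separation of that pair. The counted span of Gap43 was chr16:42248442-42340651, minus strand.

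Tubb6 belongs to the tubulin family, whose members are similar in sequence, and how the authors counted reads shared between them is not given in the sources used here. Its wild type levels were 92.4, 15.4, 13.9 and 19.1 CPM. Heterozygotes had levels of 20.2, 32.7, 26.8 and 20.004 CPM, and homozygotes 24.5, 12.9, 17.9 and 62.2 CPM. High levels came from wild type replicate 1 and homozygote replicate 4, and the other 10 libraries lay between 12.9 and 32.7 CPM.

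Sprr1a, a small proline-rich protein that promotes axon outgrowth, was at 0 counts in 10 of the 12 libraries. The exceptions were 8 counts in heterozygote replicate 1 and 12 counts in homozygote replicate 2. The library highest in 6 of the other genes, wild type replicate 1, had none.

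Gal encodes galanin, a neuropeptide that is induced by axotomy. Its wild type levels were 30.7, 0.224, 8.84 and 0.166 CPM. The heterozygote levels were 2.07, 3.99, 6.04 and 1.47 CPM, and the homozygote levels 0.290, 0.202, 2.07 and 1.91 CPM. Galanin RNA in wild type replicate 1 was 3.47-fold above the highest of the other 11 libraries, and the lowest library, replicate 4, was also wild type. Means were 9.98 ± 14.4, 3.39 ± 2.07 and 1.12 ± 1.01 CPM in wild type, heterozygotes and homozygotes (SD, n = 4 each). Gal was counted over chr19:3409919-3414472, minus strand.

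Lcn2 varied 94.6-fold among wild type libraries, with 129, 1.36, 24.0 and 7.94 CPM. In heterozygotes the levels were 20.3, 48.7, 60.2 and 41.5 CPM, and the homozygote levels 5.31, 4.68, 7.68 and 118 CPM. Homozygote replicate 4 was thus apart from the other homozygotes and close to wild type replicate 1. Of 10 neutrophil markers, 0 passed the filter, their summed level was 0 CPM in both of these libraries and at most 0.338 CPM in any library, and S100a8 was at 0 in all. Reactive astrocyte markers had a mean log2 CPM of 2.16 in wild type replicate 1 and 2.31 in homozygote replicate 4, against 0.70 to 2.65 over the 11 libraries besides wild type replicate 1. These markers did not move together. In the same order Gfap was at 23.2 and 22.9 CPM, with 11.5 to 79.1 CPM over all libraries. Wild type replicate 1 and homozygote replicate 1 were each the highest library in 3 of the 8 markers that passed the filter. Those of wild type replicate 1 were Serpina3n, Vim and Timp1. Serpina3n was at 233 CPM there (92.2 to 214 CPM in the other 11) and 165.5 CPM in homozygote replicate 4. Vim was at 9.22 CPM (2.24 to 5.82 CPM in the other 11) and 2.24 CPM. Timp1, which is also in the injury pathway list, was at 6.60 and 6.09 CPM. The part of reactive astrocytes in the level of Lcn2 was not tested. Lcn2 was counted over chr2:32384633-32387797, minus strand.

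Ecel1, the neuronal endopeptidase, had wild type levels of 608, 64.7, 95.5 and 86.2 CPM. The heterozygote levels were 160, 220, 206 and 106 CPM, and the homozygote levels 153, 121, 158 and 304 CPM. Ecel1 in wild type replicate 1 was 2.00-fold above the next library, homozygote replicate 4. The other 3 wild type libraries, at 82.1 ± 15.8 CPM (SD, n = 3), lay below each of the 8 mutant libraries. Wild type replicate 1 was left out there for its own level of Ecel1. In the other genes 0 (Gap43 and Gal) to 6 (Jun and Tubb6) of the 8 mutant libraries lay above those 3. The share of all genes with such a separation is not given here. The separation is therefore a description and no support for a difference. With wild type replicate 1 included, wild type averaged 214 ± 263 CPM, heterozygotes 173 ± 51.5 CPM and homozygotes 184 ± 81.7 CPM (SD, n = 4 each). The counted span of Ecel1 was chr1:87147655-87156521, minus strand, and overlaps no other entry of the table.

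Clic1 had wild type levels of 122, 0.352, 37.2 and 21.4 CPM. Heterozygotes were at 3.99, 40.9, 49.8 and 31.3 CPM, and homozygotes at 5.64, 22.5, 24.7 and 82.1 CPM. The lowest 3 libraries were wild type replicate 2, with 22 counts, and the pair that almost lacked interneuron RNA. The counted span of Clic1 was chr17:35049966-35058749, plus strand.

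**Figure D2:**
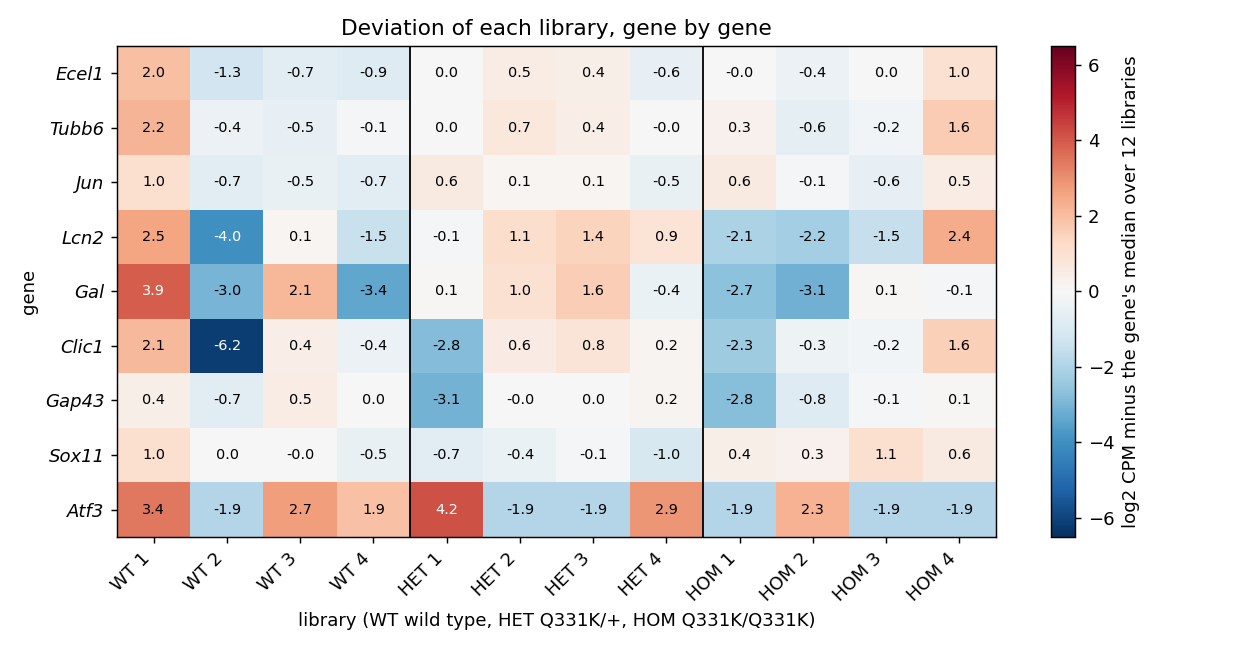
Deviation of each library (x axis) from the median of the 12 libraries, in log2 CPM, for the 9 genes that passed the filter (y axis); red is above the median, blue below, and vertical lines part the genotypes. Wild type replicate 1 is above the median in all 9 genes, and Clic1 in wild type replicate 2 lies furthest below.

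The genes were described for how they vary together, so the correlations that follow carry no test. Over the 12 libraries, 31 of 36 pairs of the 9 genes that passed the filter had a positive Pearson correlation of log2 CPM, with a median of 0.41, against a median of 0.00 over pairs of all 16338 genes. Ecel1 with Tubb6 had the highest value, 0.91, followed by Ecel1 with Jun (0.84) and Lcn2 with Clic1 (0.81). Jun and Gap43 had the lowest value, -0.36, and over the 10 libraries with interneuron RNA it was 0.32. Without wild type replicate 1 the median over pairs was 0.15, while Ecel1 with Tubb6 stayed at 0.82 and Ecel1 with Jun at 0.75. Over the 10 libraries without heterozygote replicate 1 and homozygote replicate 1 the median was 0.56. Atf3, at 0 counts in 6 libraries, had correlations of -0.32 (with Sox11) to 0.19 (with Gal).

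Subtracting each genotype's mean raised the median correlation to 0.52. Of the variance of log2 CPM over the 12 libraries, genotype accounted for 3.65% in Ecel1, 0.0206% in Tubb6, 6.06% in Jun, 2.32% in Clic1, 13.5% in Gap43, 14.0% in Gal, 15.4% in Lcn2 and 16.6% in Atf3, against a median of 13.8% over all 16338 genes. Sox11 was the exception, with 56.2%. Ecel1, Tubb6, Jun, Lcn2, Gal, Clic1 and Gap43 varied widely for their abundance. The SD of log2 CPM was 0.88 for Ecel1 against a median of 0.16 over 1870 genes within 2-fold of its mean CPM, 2.03 against 0.25 for Lcn2 and 2.27 against 0.25 for Clic1. Sox11 varied less than most genes of its level, with an SD of 0.66 against a median of 1.85 over 1927 genes, most of them with some libraries near 0.

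The comparison of homozygotes with wild type asked what 2 mutant copies of Tardbp, the gene of TDP-43, change. In edgeR's quasi-likelihood model over all genes, 0 of 9 tested genes passed at an adjusted p below 0.05, where 0.00612% of all genes did. There, 1 of the 9 had an unadjusted p below 0.05, as did 4.82% of all genes. In DESeq2, which gave no p for Ecel1, 0 of 8 passed. The groups did not overlap in 0 of the 9, where they did not overlap in 3.41% of all genes. Ecel1 had a log2 difference of -0.21 (SE 0.62, 95% interval -1.56 to 1.13), Jun of 0.16 (SE 0.40, interval -0.70 to 1.03) and Gap43 of -0.69 (SE 0.62, interval -2.05 to 0.66). Gal had the largest difference among genes with counts in every library, -3.16 (SE 1.36, interval -6.12 to -0.19). The middle interval among the 9 was 2.84 log2 units wide, against 1.19 over all genes. Jun had the narrowest, 0.615-fold to 2.04-fold. The intervals of the other genes took in changes of several-fold, so these could not be told from the spread between libraries.

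Those differences depended on wild type replicate 1. Without it, Ecel1 was higher in homozygotes than in wild type by 1.17 (SE 0.33, interval 0.46 to 1.89, adjusted p = 0.786 in edgeR). Tubb6 moved from -0.26 to 0.87, Clic1 from -0.42 to 0.79, Lcn2 from -0.26 to 1.62 and Jun from 0.16 to 0.80. Gal moved to -1.45 and Gap43 to -0.58, both still negative. Lcn2 also hung on homozygote replicate 4, without which its difference was -2.79. None of the 9 genes passed over all genes in either case. Both libraries are singled out here for their own values in these genes. An interval that narrows without them is therefore a description and no support for a difference.

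The comparison of heterozygotes with wild type asked what a single mutant copy changes. Again 0 of 9 passed in edgeR, where 0% of all genes did. An unadjusted p below 0.05 was found for 0 of the 9 and for 4.1% of all genes in edgeR. In DESeq2, again without a p for Ecel1, 0 of 8 passed. The groups did not overlap in 0 of 9, where 3.24% of all genes did not overlap. Ecel1 had a log2 difference of -0.31 (SE 0.62, interval -1.65 to 1.04), Tubb6 of -0.50 (SE 0.62), Lcn2 of 0.07 (SE 1.21) and Gal of -1.56 (SE 1.28). Without wild type replicate 1 these were 1.08 for Ecel1 (SE 0.33, adjusted p = 0.887 in edgeR), 0.63 for Tubb6, 1.94 for Lcn2 and 0.15 for Gal. The same limit on leaving that library out holds here. Both mutant comparisons share the same wild type libraries, so their shift together is a single observation.

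**Figure D3:**
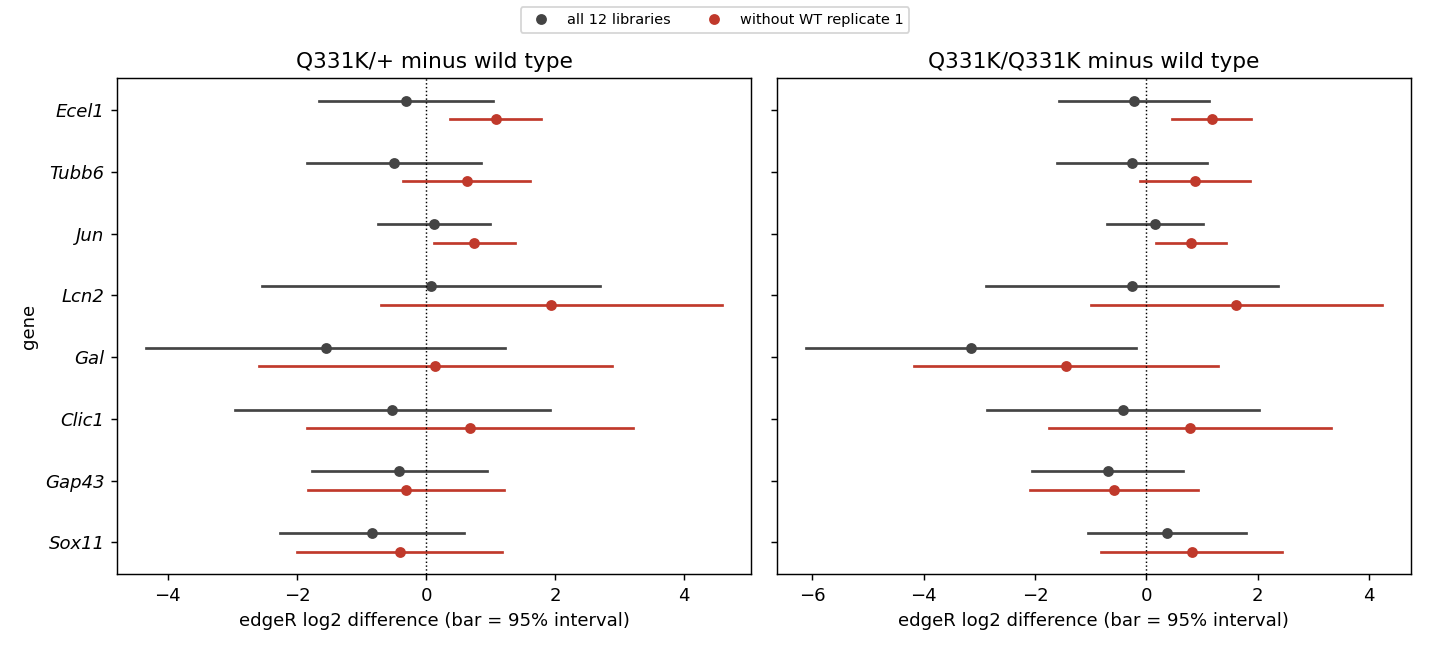
edgeR log2 difference from wild type (x axis; points, with 95% intervals as bars) of 8 genes (y axis) in heterozygotes (left) and homozygotes (right), with all 12 libraries in black and without wild type replicate 1 in red. Ecel1 moves from -0.31 to 1.08 on the left and from -0.21 to 1.17 on the right. Gap43, Sox11 and Jun keep their sign in both panels, Lcn2 on the left only and Gal on the right only. Atf3, at 0 counts in 6 libraries, is left out.

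Homozygotes and heterozygotes were compared to ask how the number of mutant copies matters. In edgeR 0 of the 9 genes passed, where 0% of all genes did. An unadjusted p below 0.05 was found there for 0 of the 9 and for 2.97% of all genes. In DESeq2, without a p for Ecel1, 0 of 8 passed. The groups did not overlap in 1 of 9, Sox11, where they did not overlap in 2.03% of all genes. Sox11 averaged 0.652 ± 0.170 CPM in homozygotes and 0.280 ± 0.0867 CPM in heterozygotes (SD, n = 4 each). Its log2 difference was 1.21 (SE 0.66, interval -0.23 to 2.65). The other genes with counts in every library had differences between -1.60 for Gal and 0.24 for Tubb6.

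Levels of other cells' RNA were set beside the libraries that were high and low in these genes. Of all libraries, wild type replicate 1 had the lowest oligodendrocyte score (mean log2 CPM of 12 markers, 4.54 against 4.78 to 6.03 in the others). That library held Mbp at 455 CPM, within the range of the others (412 to 1445 CPM). Its motor neuron score, 8.33, came after those of heterozygote replicate 1 (8.73) and homozygote replicate 1 (8.56) only, and Nefm, a neurofilament chain, was at 14410 CPM and Nefh at 5564 CPM. Ecel1 was at 160 CPM in heterozygote replicate 1, 153 CPM in homozygote replicate 1 and 608 CPM in wild type replicate 1. Homozygote replicate 4, second in 4 of the genes, had a motor neuron score of 7.84 and an oligodendrocyte score of 5.19. In wild type replicate 2, the lowest library in 4 of them, these scores were 7.76 and 5.18. Over the 12 libraries Jun followed the motor neuron score with a correlation of 0.77, and without heterozygote replicate 1 and homozygote replicate 1 it was 0.73. For Ecel1 these correlations were 0.48 and 0.74. Ecel1, Tubb6 and Jun ran against the oligodendrocyte score, at -0.70, -0.73 and -0.65, and without wild type replicate 1 at -0.53, -0.57 and -0.49. The part of cell content in the levels of these genes was not tested. In captured tissue, fewer cells of a type and less RNA per cell cannot be told apart.

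**Figure D4:**
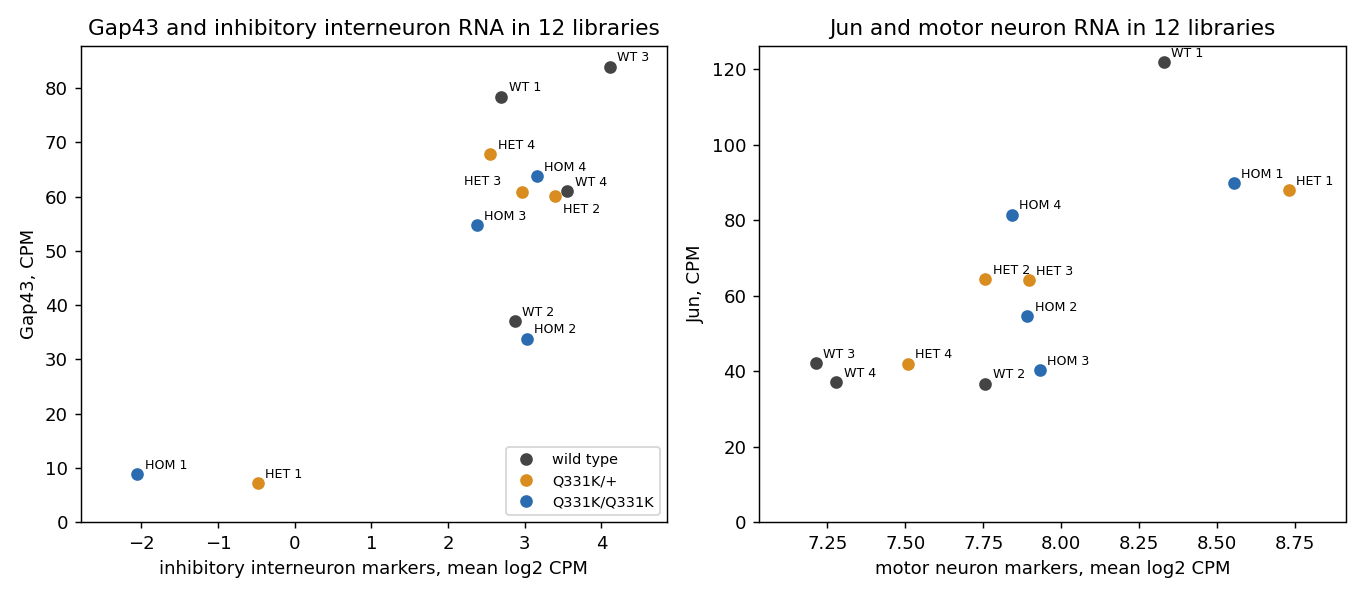
Left, Gap43 in CPM (y axis) against the mean log2 CPM of 10 inhibitory interneuron markers (x axis); right, Jun in CPM against the mean log2 CPM of motor neuron markers; each point is 1 of 12 libraries, coloured by genotype. Gap43 is at 7.24 and 8.88 CPM in the 2 libraries almost without interneuron RNA, and Jun is highest in wild type replicate 1 (122 CPM), whose motor neuron score is 8.33.

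The other marker scores of wild type replicate 1 lay within the range of the other 11 libraries. The astrocyte score was 4.17 (range 3.88 to 5.51, with Aldoc at 964 CPM), the microglia score 1.56 (-0.71 to 1.73), the endothelial score 0.05 (-1.58 to 1.57, with Ly6c1 at 17.0 CPM), the Schwann cell score 1.80 (0.89 to 4.05, mostly Pmp22), the fibroblast and mural score -1.70 (-2.91 to 0.80, with Dcn at 36.9 CPM) and the red blood cell score 1.26 (0.10 to 3.92). The inhibitory and excitatory interneuron scores were 2.70 (-2.05 to 4.12) and 1.41 (-1.32 to 2.48). The same library also had the smallest share of mitochondrially encoded counts, 0.657% against 0.735% to 1.56%, and 16904 entries with a count against 16228 to 17002. Wild type replicate 2, lowest in 4 of the genes, had the lowest astrocyte (3.88), microglia (-0.71) and fibroblast and mural scores (-2.91) of the 12 libraries.

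A list of 100 other genes of the injury and regeneration pathway was examined, of which 88 passed the filter. In edgeR 0 of the 88 passed in each comparison (2, 3 and 2 at an unadjusted p below 0.05, which is 2.27%, 3.41% and 2.27% against 4.82%, 4.10% and 2.97% of all genes), with 52 higher and 36 lower in homozygotes than in wild type, 48 and 40 in heterozygotes than in wild type, and 51 and 37 in homozygotes than in heterozygotes. Of all genes, 50.6% were lower in homozygotes and 50.3% in heterozygotes than in wild type. Growth cone and cytoskeleton genes were higher in 12 of 15 in either mutant, which share the same wild type libraries. Their median log2 difference was 0.15 in homozygotes and 0.12 in heterozygotes against 0.00 over all genes. They included Stmn2, which binds tubulin, at 2010 ± 608 CPM in homozygotes and 1550 ± 267 CPM in wild type (SD, n = 4 each, adjusted p = 0.986 in edgeR). Besides wild type replicate 1, Stmn2 ran from 1315 to 2930 CPM with a median of 1662 CPM. Receptors and adhesion genes had medians of -0.09 and -0.19, with 9 and 7 of 19 higher. Transcription factors were higher in 13 of 20 and 10 of 20, secreted factors in 9 of 14 and 9 of 14, and stress and repair genes in 9 of 20 and 10 of 20.

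The genes with the smallest p-values within each of its 5 sublists did not pass over all genes. Egr1, an immediate early transcription factor, averaged 5.69 ± 3.21 CPM in heterozygotes and 14.6 ± 3.79 CPM in wild type (SD, n = 4 each), and Cebpb, another transcription factor of the injury response, had a log2 difference of 0.40 (SE 0.17) in the same comparison (adjusted p = 0.999 for each in edgeR). Hspb1, a small heat shock protein of injured motor neurons, averaged 438 ± 240 CPM in homozygotes and 206 ± 114 CPM in wild type, and Calca, which encodes the peptide CGRP, 606 ± 589 and 184 ± 141 CPM (adjusted p = 0.986 for each in edgeR). Replicate 1 raised both homozygote means. This library, with little interneuron RNA, had Calca at 1465 CPM and Hspb1 at 796 CPM. The other homozygotes averaged 320.2 ± 168 CPM for Calca and 318 ± 30.8 CPM for Hspb1 (SD, n = 3), both above the wild type means. Wild type replicate 1 had Hspb1 at 356 CPM. Met, the receptor of hepatocyte growth factor, averaged 0.906 ± 0.519 and 2.51 ± 1.17 CPM in the same order. The others were Atf2, Stmn4, Tubb3, Nts, Calcb, Chl1, Osmr, Gadd45b and Rac2, with adjusted p-values of 0.986 to 1 in edgeR. Rac2, a GTPase, was below 1 CPM in every library, and Osmr, a cytokine receptor, was at most 2.74 CPM.

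The same library stood out in this list. Of the 88 genes, 20 (22.7%) reached their highest level in wild type replicate 1, where 9.49% of all genes did. The shares were as high in heterozygote replicate 1 (22.7% against 12.5% of all genes) and 17.0% against 12.5% in homozygote replicate 1, the libraries with the most motor neuron RNA, and at most 6.82% in any other. At the other end, 7 of the 88 (7.95%) were lowest in wild type replicate 1, a smaller share than over all genes. Klf4, Sox4, Stmn4 and Dpysl2 were among those. The sublists differed in their part of the 20. Transcription factors gave 2 of 20 genes, growth cone and cytoskeleton genes 1 of 15 and secreted factors 3 of 14. Stress and repair genes gave 6 of 20, and receptors and adhesion genes 8 of 19. Among the last was Ret, the receptor of glial cell line-derived neurotrophic factor, at 498 CPM in wild type replicate 1 against 172 to 334 CPM in the other 11. Ngfr, the low-affinity neurotrophin receptor that motor neurons re-express after axotomy, was at 15.9 CPM against 0 to 8.39 CPM, and Gfra1, the partner of Ret, at 300.5 CPM against 100.2 to 291 CPM. Timp1, an inhibitor of matrix proteases, was at 6.60 CPM in wild type replicate 1 and 6.09 CPM in the next library, with a median of 0.0144 CPM over the 11. Ret, Ngfr, Gfra1 and Timp1 were picked after their values were seen, and Ret and Gfra1 are also in the motor neuron marker list.

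**Figure D5:**
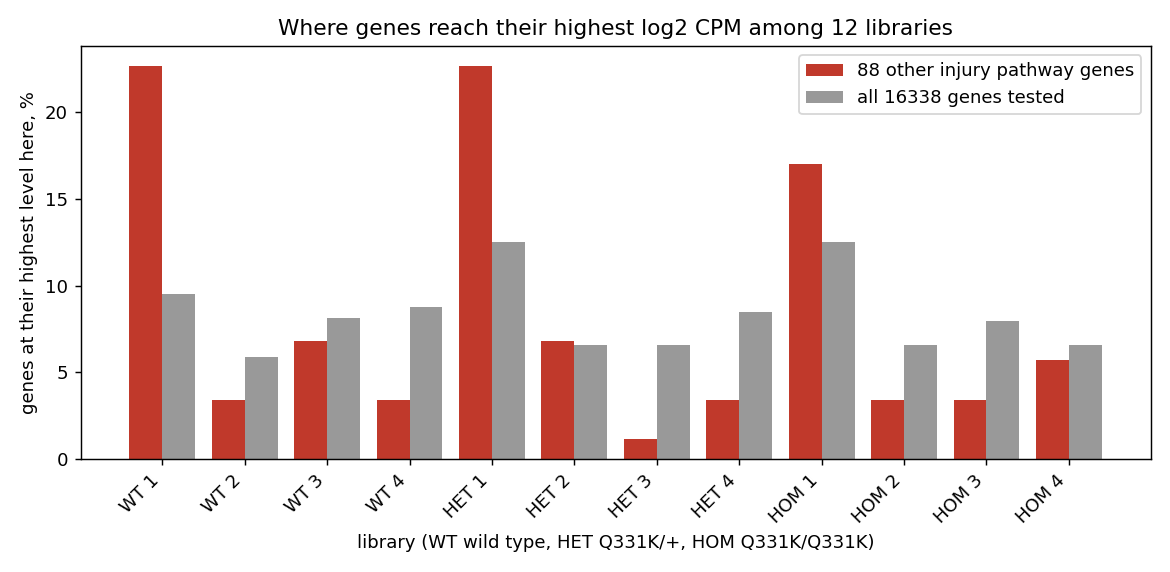
Share of genes (y axis, %) that reached their highest log2 CPM in each library (x axis), for 88 other injury pathway genes (red) and all 16338 genes tested (grey). The red bars stand at 22.7% in wild type replicate 1 and heterozygote replicate 1 and at 17.0% in homozygote replicate 1.

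The genes most like each of these over the 12 libraries were found among 10803 genes with a mean of at least 5 CPM, by the Pearson correlation of log2 CPM, as a description. For Tubb6 they were Ret (0.93), Mpp3 (0.92) and Ecel1 (0.91), and for Ecel1 they were Pde1a (0.94), Serpina3c (0.92) and Bmper (0.92). Jun was most like Ldha, a lactate dehydrogenase subunit (0.97), Fech (0.94) and Rap1b (0.94), and Ldha stayed first without wild type replicate 1 (0.96). Gap43 was most like Syt6, a synaptotagmin (0.99), Adm (0.97) and Rab15 (0.97), and over the 10 libraries with interneuron RNA Syt6 was still first (0.94). Lcn2 was most like Ptgr2 (0.92), Atp2b4 (0.91) and Lgals3, a galectin (0.90), Gal like 2410002F23Rik (0.88), Sec31a (0.82) and Tha1 (0.81), and Clic1 like Chst9 (0.90), Tm4sf1 (0.89) and Srd5a2 (0.88). Over the 10 libraries with interneuron RNA, Gfra1 was first for Ecel1 (0.98) and second for Jun (0.96).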

How the data were processed

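Per the labels' protocols, RNA of laser-captured lumbar motor neurons was extracted with a kit for captured cells, copied with SMART-seq v4 and made into libraries with Nextera XT, which keep no strand and add no molecular identifiers. The authors deposited whole-number read counts for each gene, with no normalization. Per the submitters' processing notes, Trim Galore 0.4.3 and HISAT2 2.0.5 were used with GRCm38. The counting program and its annotation are not given in the sources used here. Of 25965 entries, 66 repeat a symbol and were kept as entries of their own. The levels of some marker genes are not reported here.

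filterByExpr in edgeR 4.0.16 (R 4.3.3; minimum count 10) kept 16338 genes. TMM factors ran from 0.94 to 1.03, and 2 was the prior count of log2 CPM. With genotype as group, a quasi-likelihood fit to all 12 libraries gave two-sided tests adjusted by the Benjamini-Hochberg method (below 0.05). The steps were tested on simulated counts. P-values measure the spread between libraries. Depth was 60886825 to 83504446 counts, and Atf3, Sox11 and Sprr1a had few.

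The 10 genes, the pathway list and the marker lists were chosen with earlier results of these data known. All 10 genes were named, with the 3 genes most like each of the 7 members that averaged 1 CPM or more, the smallest p-values of each of the 5 pathway lists and the most abundant markers. Alternatives were DESeq2 1.42.0, other size factors, other filters, a replicate block, the 8 libraries compared and leaving libraries out.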

Additional observations from a re-analysis of the deposited data

Results flagged for a closer look

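In each genotype of 4 libraries, a library was singled out when its gap to the nearest other, as a share of the group's range, exceeded Dixon's 95% critical value for 4 samples. Over 29 gene and genotype groups this gave 8. Chance singles out about 1 in 20 groups, but the genes were chosen on these data and several groups hold only zeros beside the library singled out, so the number is a description.

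Wild type replicate 1 was high in Jun (122 CPM against 36.7 to 42.1 CPM in the other wild type libraries), Tubb6 (92.4 against 13.9 to 19.1 CPM) and Ecel1 (608 against 64.7 to 95.5 CPM). Over all genes, 2.4% were high in wild type replicate 1 by the same measure, and 1.12% to 1.18% in the other wild type libraries. Homozygote replicate 4 was high in Lcn2 (118 against 4.68 to 7.68 CPM). Heterozygote replicate 1 was low in Gap43 (7.24 against 60.0 to 67.8 CPM).

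The others were low genes with 0 counts in the rest of the group. Homozygote replicate 2 had Atf3 at 0.475 CPM and Sprr1a at 0.173 CPM, and heterozygote replicate 1 had Sprr1a at 0.113 CPM.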

How the results depend on the processing

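No alternative that gave a p brought any of the 9 tested genes past the threshold. The smallest adjusted p was 0.447, in edgeR, for Ecel1 in homozygotes against wild type without the 3 libraries that stood apart. DESeq2 gave no p for Ecel1, and Sprr1a has no value of its own here. Of 533 values of single genes under alternatives, 55 had the opposite sign to the value with all libraries and 18 moved by more than the SD between libraries. Over all genes, homozygotes against wild type gave 1 call (Spop), and 0 with no filter, without heterozygote replicate 1 and homozygote replicate 1 together, with only the 8 libraries compared and without wild type replicate 1, heterozygote replicate 1 and homozygote replicate 1 together, the last chosen after seeing the data. Leaving out each library in turn gave 0 calls there in each case. Unadjusted p below 0.05 numbered 787 in edgeR. DESeq2 gave 13 calls in homozygotes against wild type, 13 for heterozygotes versus wild type and 8 for homozygotes versus heterozygotes, where edgeR gave 1, 0 and 0; the cause was not tested.

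The median correlation over pairs of the genes, 0.406, was 0.559 without heterozygote replicate 1 and homozygote replicate 1 together and 0.519 with genotype means subtracted. Leaving out each library in turn gave 0.147 (without wild type replicate 1) to 0.47. The replicate number as a block, taken out with the genotype means, gave 0.82. Same-numbered libraries deviated together with correlations from -0.0528 to 0.454, of which not all were above 0.1. The highest in each comparison was that of replicate 1 (0.114, 0.106 and 0.454). Low correlations cannot exclude pairing, so whether the numbers pair the libraries was not settled. In edgeR the block called 1 gene in homozygotes against wild type and 0 members. With the block, 1431 genes had an unadjusted p below 0.05 in that comparison, against 787 without it. In heterozygotes against wild type these numbers were 1157 and 670. Atf3, Sox11 and Sprr1a had few counts, and their zeros allow up to 3 counts.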
